A study of Mus musculus with 9 samples.

Results

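The 10 genes described here are chaperone and metal-binding genes best known from the stress response: 8 heat shock protein genes (Hspa1a, Hspa1b, Hspa8, Hsp90aa1, Hspb1, Dnajb1, Hsph1 and Hspd1) and the metallothionein genes Mt1 and Mt2. They were chosen by name, and all 10 were found among the 55359 genes of the count table and among the 17179 genes that had enough counts to be tested. RNA was sequenced from mouse kidney tissue in 9 libraries, 3 in each of 3 groups. HFD-STZ+DH mice began a high-fat diet (fat supplying 49% of calories) when 6 weeks old. On diet days 60 and 63 they were injected with 30 mg/kg of streptozotocin (STZ), which destroys beta cells, and they later took dehydrozingerone (DH), a ginger compound related to curcumin, by mouth at 50 mg/kg for 2 weeks. HFD-STZ+Veh mice had the same diet and streptozotocin and, by the group name, vehicle, and NCD+Veh mice had a control diet with 11.32% of calories from fat, and vehicle. Hyperglycaemia was tested on day 65, and strain and sex are not given in the labels. The groups were read from the sample titles, because all 9 libraries carry the compound's name as their treatment. No 2 libraries share a batch date, and the dates run in group order: the effects of batch and group cannot be told apart.

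Heat shock proteins are chaperones that hold, fold and disaggregate other proteins. In unstressed cells the transcription factor HSF1 is kept inactive by chaperones, and when unfolded proteins draw these away it binds heat shock elements, inverted repeats of the letters GAA, and raises the inducible members. Metallothioneins are small cysteine-rich proteins that bind zinc and copper. The zinc sensor MTF1 raises them through metal response elements, and glucocorticoids and oxidants raise them too; in the kidney they are best known from proximal tubule cells, where they hold cadmium and zinc.

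Promoter sequences are shown for the genes on which the results turn, Mt1 with its neighbour Mt2, and Hsph1, and for Hspa1b, whose promoter is almost that of Hspa1a. RefSeq (GRCm38.p6) gave a promoter window for 8 of the 10 genes, Hspa8 and Hsp90aa1 being the other pair, and each sequence holds the 250 bases before the annotated start, written 5′ to 3′ on the gene's strand. Capitals mark metal response elements (TGCACNC or TGCGCNC, on either strand) in Mt1 and Mt2 and paired heat shock units (GAANNTTC or TTCNNGAA) in the others.
Mt1 promoter, chr8:94178839-94179088, plus strand: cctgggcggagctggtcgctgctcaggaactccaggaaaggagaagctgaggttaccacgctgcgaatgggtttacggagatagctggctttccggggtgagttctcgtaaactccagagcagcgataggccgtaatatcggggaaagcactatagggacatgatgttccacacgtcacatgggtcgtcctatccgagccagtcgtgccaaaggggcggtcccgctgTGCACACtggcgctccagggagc
Mt2 promoter, chr8:94172368-94172617, plus strand: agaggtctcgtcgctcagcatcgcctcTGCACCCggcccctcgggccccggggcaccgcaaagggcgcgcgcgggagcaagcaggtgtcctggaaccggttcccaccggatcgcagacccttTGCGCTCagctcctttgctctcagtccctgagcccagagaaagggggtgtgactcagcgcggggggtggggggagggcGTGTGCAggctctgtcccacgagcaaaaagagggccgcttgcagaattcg
Hsph1 promoter, chr5:149636337-149636586, minus strand: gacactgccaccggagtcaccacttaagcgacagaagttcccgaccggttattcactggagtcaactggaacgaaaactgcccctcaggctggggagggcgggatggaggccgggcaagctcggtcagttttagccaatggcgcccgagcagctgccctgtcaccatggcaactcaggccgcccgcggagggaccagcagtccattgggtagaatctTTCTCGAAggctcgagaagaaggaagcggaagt
Hspa1b promoter, chr17:34959239-34959488, minus strand: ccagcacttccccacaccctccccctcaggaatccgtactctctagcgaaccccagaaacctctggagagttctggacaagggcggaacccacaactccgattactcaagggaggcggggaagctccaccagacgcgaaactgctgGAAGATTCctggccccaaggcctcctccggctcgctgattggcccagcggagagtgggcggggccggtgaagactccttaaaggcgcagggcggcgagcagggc

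Mt1 and Mt2 lie side by side on chromosome 8. In the full window of 250 bases before and 50 after the start, Mt2 held 4 metal response elements and Mt1 held 3, of which 3 and 1 lie in the bases printed. At least 1 such element was found in 25.7% of all 32851 windows of this length, and 3 or more in 1.97%. The Mt1 elements not printed lie at bases 3 to 9 and 21 to 27 after the annotated start. Whether kidney transcripts of Mt1 and Mt2 begin at these annotated starts was not tested. The printed bases may therefore not hold the promoter in use, and the counts of elements do not rank the pair. Paired heat shock units were found in 15.1% of windows, and 3 alternating units in a row (GAANNTTCNNGAA or TTCNNGAANNTTC), which contain the pairs, in 0.603%. Hsph1 held such a run of 3 units, TTCTGGAAAGTTC, at bases 37 to 49 after the annotated start at which the printed sequence ends. This run is thus not among the bases printed. Hspd1 held 2 overlapping runs, TTCCGGAAGGTTC and GAAGGTTCTAGAA, in the window of its second annotated start. Hspb1 held 2 paired units, Hspa1a and Hspa1b 1 each, and no paired unit was found in the windows of the annotated Dnajb1 starts. Over the 250 bases Hspa1b and Hspa1a were 98.8% identical. Their transcripts (GENCODE M21) are alike too: 62.3% of the 50-base stretches of Hspa1b also occur in Hspa1a. Reads of this pair may therefore have been split or dropped in counting, and their separate values are uncertain. Mt1 and Mt2 shared 0 such stretches, as did Hsp90aa1 and Hsp90ab1.

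Total counts were 27.6 to 47.5 M (mega) in HFD-STZ+DH, 15.1 to 34.9 M in HFD-STZ+Veh and 17.1 to 25.9 M in NCD+Veh, and nuclear protein-coding genes held 2.13 to 15.2 M of them. The lowest of these was HFD-STZ+Veh replicate 2, with 60.4% mitochondrial counts. Markers of kidney tubule were present, Lrp2 of the proximal tubule lying at 216 to 410.5 counts per M (CPM, scaled by TMM) over all libraries. Cyp11b1 of the adrenal cortex was at most 0.0462 CPM and Acta1 of skeletal muscle at most 0.135 CPM, while markers of fat cells were detected and differed between groups, with values given beside the results. Y-linked transcripts were found in HFD-STZ+DH replicate 3, HFD-STZ+Veh replicates 2 and 3 and NCD+Veh replicate 1, which is 4 of the 9 libraries, and the labels do not give sex.

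The order of the 10 genes, compared as CPM per kb of exon, was much the same in the 3 groups. Hspa8, the constitutive cytosolic HSP70, and Hsp90aa1, the inducible cytosolic HSP90, stood highest. Hspa8 had 176 ± 18.8 CPM per kb in HFD-STZ+DH, 164 ± 52.2 in HFD-STZ+Veh and 135 ± 24.4 in NCD+Veh (mean ± SD, n = 3 each). Hsp90aa1 had 96.2 ± 26.2 CPM per kb in HFD-STZ+DH, 208 ± 63.1 in HFD-STZ+Veh and 169 ± 77.8 in NCD+Veh. Hspa8 ranked first in HFD-STZ+DH, where its libraries did not overlap those of Hsp90aa1, and in the other two groups Hsp90aa1 ranked first with overlap. Hspd1, the mitochondrial chaperonin HSP60, came next at 48.2 ± 2.51 CPM per kb in HFD-STZ+DH, 43.9 ± 11.0 in HFD-STZ+Veh and 37.7 ± 10.5 in NCD+Veh. Both metallothioneins followed, and in NCD+Veh the libraries of Mt1 overlapped those of Hspd1. Mt2 was above Mt1 in HFD-STZ+DH (23.7 ± 8.21 against 15.8 ± 3.02 CPM per kb) with overlap. Mt1 was above Mt2 in NCD+Veh (29.6 ± 3.96 against 21.9 ± 3.60 CPM per kb) without overlap. The order of this pair depends on the lengths used, all annotated exons of a gene joined: 1246 bases for Mt1 and 588 for Mt2. By counts alone Mt1 was above Mt2 in every library. Hsph1, the HSP110 that recharges HSP70 with nucleotide, was far lower, at 4.09 ± 0.544 CPM per kb in HFD-STZ+DH and 2.23 ± 0.537 in NCD+Veh. Dnajb1, Hspb1, Hspa1b and Hspa1a stood at 0.987 to 2.42 CPM per kb in every group, and neighbours among them overlapped except Hspa1b and Hspa1a in HFD-STZ+DH. The stress-inducible Hspa1a and Hspa1b were thus near the bottom of the order in all 3 groups.

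**Figure D1:**
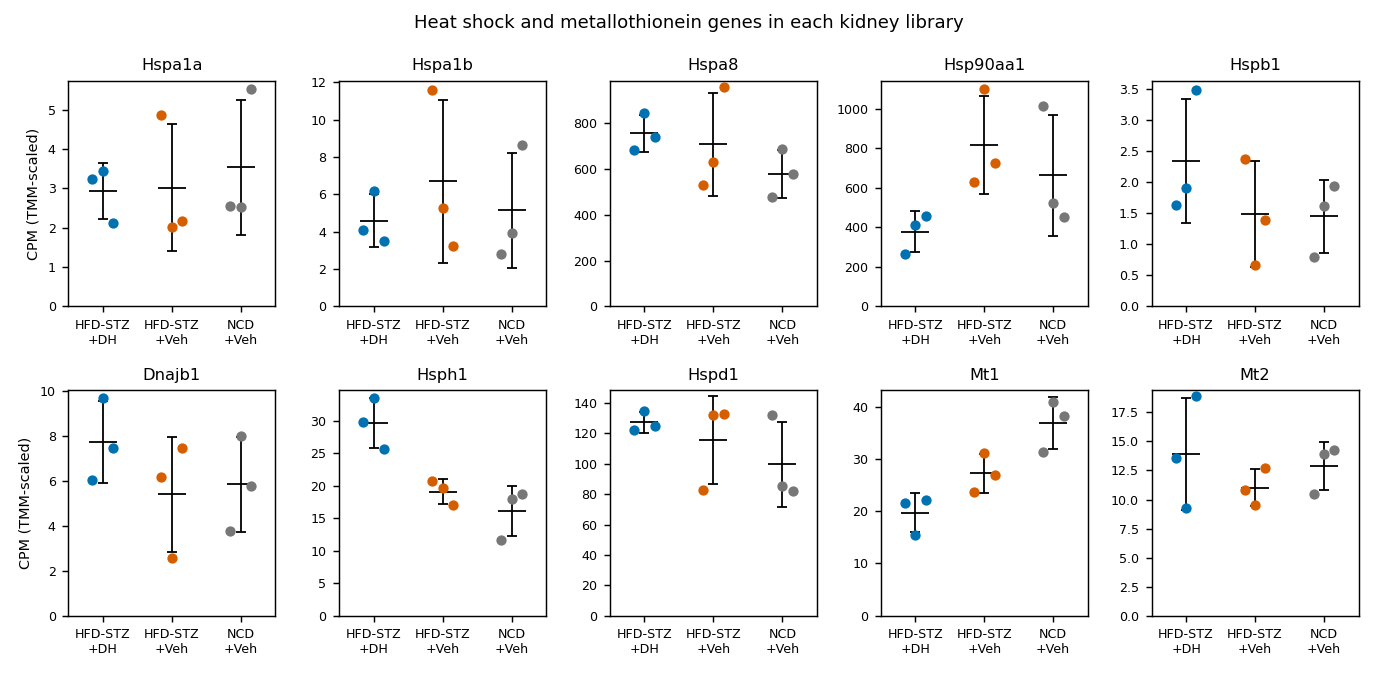
TMM-scaled counts per M (CPM, y axis from 0 in each panel) of the 10 genes in the 3 libraries of each group; points are libraries, the horizontal bar is the mean and the whiskers 1 SD. Hsph1 is highest and Mt1 lowest in the HFD-STZ+DH libraries, whereas Hspa1a and Hspa1b vary as much within groups as between them.

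What the diabetic model did to these genes was asked by comparing HFD-STZ+Veh with NCD+Veh. None of the 10 genes changed by the test, edgeR's quasi-likelihood test at a threshold of 0.05 on p-values adjusted over all genes by the Benjamini-Hochberg method. That test called 9 of all genes in this comparison (0.0524%), and at an unadjusted p under 0.05 it found 1276 genes, 0 of them among the 10. DESeq2, which called 119 genes, and limma-voom, which called 2, also called 0 of the 10. The median log2 fold change was 0.15 over the 10 genes and −0.0032 over all genes tested, with 6 of 10 estimates above 0.

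Mt1 came closest. Its levels were 23.7, 31.1 and 27.0 CPM in HFD-STZ+Veh, against 31.4, 40.9 and 38.3 CPM in NCD+Veh. All 3 HFD-STZ+Veh libraries lay below all 3 NCD+Veh libraries, by a narrow gap (log2 fold change −0.44 with SE 0.22, adjusted p = 0.70). It was the 1 gene of the 10 without overlap, where 11.4% of all genes had none. Mt2 overlapped, at 10.8, 9.57 and 12.7 CPM in HFD-STZ+Veh and 10.5, 13.9 and 14.3 CPM in NCD+Veh (−0.22, SE 0.26, adjusted p = 0.85).

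The inducible HSP70 genes differed more between the libraries of 1 group than between groups. Hspa1b had 11.6, 5.26 and 3.25 CPM in HFD-STZ+Veh, against 2.83, 3.94 and 8.66 CPM in NCD+Veh, and Hspa1a had 4.87, 2.02 and 2.17 CPM in HFD-STZ+Veh against 2.56, 2.53 and 5.52 CPM in NCD+Veh. In each group a single library, HFD-STZ+Veh replicate 1 and NCD+Veh replicate 3, stood above the rest for both genes. Neither library carries Y-linked transcripts. Without HFD-STZ+Veh replicate 1 the log2 fold change of Hspa1b was −0.32, against 0.37 with all libraries. The estimates of the remaining 6 heat shock genes lay between −0.07 (Dnajb1) and 0.30 (Hsp90aa1), with adjusted p of 0.81 to 0.97. With libraries scaled by total count alone, which moves the median of all genes to −0.74, the signs of Hspa1b, Hspa8, Hsp90aa1, Hspb1, Hsph1 and Hspd1 turn.

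The gene of lowest p in each wider list did not pass either. The largest of these estimates were those of Fkbp5, an HSP90 co-chaperone (1.51, SE 0.48, adjusted p = 0.48), Nr4a1, an immediate early nuclear receptor (1.17, SE 0.51, adjusted p = 0.65), and Errfi1, a glucocorticoid-induced inhibitor of the EGF receptor (1.12, SE 0.31, adjusted p = 0.38). The groups overlapped for Fkbp5 but not for Nr4a1 or Errfi1. They did not overlap either for the HSP110 relative Hspa4l (0.57, SE 0.19, adjusted p = 0.53), the HSP40 Dnaja4 (0.68, SE 0.24, adjusted p = 0.56), the zinc transporter Slc30a4 (−0.86, SE 0.30, adjusted p = 0.55), the copper chaperone Cox17 (0.96, SE 0.37, adjusted p = 0.60) or the small heat shock protein Hspb7 (−0.41, SE 0.28, adjusted p = 0.75). Nr4a1 rested on 4 to 27 counts in HFD-STZ+Veh and 3 to 16 in NCD+Veh. Of all genes, 11.4% had no overlap in this comparison. The genes named here were picked for the lowest p of their list, so their lack of overlap cannot be read against that share.

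What dehydrozingerone did in diabetic mice was asked by comparing HFD-STZ+DH with HFD-STZ+Veh. The test called 0 of the 10 genes here, although it called 3796 of all genes (22.1%); 2 of the 10, Hsp90aa1 and Hsph1, had an unadjusted p under 0.05, as did 6366 genes in all. The libraries of the groups did not overlap for Hsph1, Hsp90aa1 and Mt1, 3 of 10, where 39.8% of all genes had no overlap. The share of the 10 genes set apart by treatment was thus no larger than that of genes in general. Their median log2 fold change was 0.12, against 0.04 for all genes.

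Hsp90aa1 had the largest estimate. Its levels were 263, 411 and 460.4 CPM in HFD-STZ+DH, against 631, 1100 and 726 CPM in HFD-STZ+Veh and 1015, 524 and 454 CPM in NCD+Veh. The HFD-STZ+DH libraries all lay below the HFD-STZ+Veh ones, while NCD+Veh replicate 3 was within the HFD-STZ+DH range and replicate 2 above it (HFD-STZ+DH against HFD-STZ+Veh −1.11, SE 0.39, adjusted p = 0.056). DESeq2 called it (−1.12, adjusted p = 0.012), as did limma-voom (−1.16, adjusted p = 0.040) and edgeR without the filter on low counts (−1.02, adjusted p = 0.038) or without NCD+Veh replicate 1 (adjusted p = 0.031), whereas scaling by total count gave −0.18 (adjusted p = 0.83). The 3 libraries with the highest Hsp90aa1, HFD-STZ+Veh replicates 2 and 3 and NCD+Veh replicate 1, also had the highest mitochondrial shares, 60.4%, 52.4% and 51.5% of counts, against 39.2% to 46.3% elsewhere. All 3 carry Y-linked transcripts. Unprocessed pseudogenes outside the mitochondrial genome held 19.1% to 26.2% of counts over all libraries. Of the counts outside these pseudogenes and the mitochondrial genome, Malat1, a nuclear non-coding RNA, took 23.7%, 11.9% and 14.7% in the 3 libraries. Elsewhere it took 3.49% to 11.9%. With a term for Y-linked transcripts in the fit, the log2 fold change of Hsp90aa1 against HFD-STZ+Veh was −0.88 (SE 0.30, adjusted p = 0.052). The part of the other differences in the result was not tested. Among libraries without Y-linked transcripts Hsp90aa1 had 263 and 411 CPM in HFD-STZ+DH against 631 CPM in HFD-STZ+Veh. Among those with them it had 460.4 CPM in HFD-STZ+DH against 1100 and 726 CPM in HFD-STZ+Veh. These parts hold too few libraries to be tested apart.

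Hsp90ab1, the constitutive cytosolic HSP90, followed Hsp90aa1 across the libraries. It fell to 248, 361 and 489 CPM in HFD-STZ+DH, against 825, 1669 and 1107 CPM in HFD-STZ+Veh (−1.71, SE 0.47, adjusted p = 0.024), and lay at 1550, 555 and 551 CPM in NCD+Veh. The call was lost without HFD-STZ+DH replicate 1 or 2 or without HFD-STZ+Veh replicate 2, with adjusted p of up to 0.11. Among 5581 protein-coding genes whose log2 CPM averaged 3 or more, Hsp90ab1 had the pattern most like that of Hsp90aa1 over the 9 libraries (Pearson r 0.988), followed by Ftsj3 (0.982) and Twistnb (0.978). These values describe libraries that also differ in depth and mitochondrial share. Within a library the count of Hsp90aa1 was 1.06, 1.14 and 0.942 times that of Hsp90ab1 in HFD-STZ+DH, 0.765, 0.659 and 0.656 times in HFD-STZ+Veh, and 0.654, 0.943 and 0.823 times in NCD+Veh. The inducible gene thus made up more of the HSP90 counts in every HFD-STZ+DH library than in any HFD-STZ+Veh library, with overlap against NCD+Veh; this ratio was chosen after its values were seen and was not tested.

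Hsph1 was higher with dehydrozingerone in every library, at 29.9, 33.5 and 25.7 CPM in HFD-STZ+DH, against 20.7, 19.7 and 17.0 CPM in HFD-STZ+Veh and 11.7, 18.0 and 18.8 CPM in NCD+Veh. The log2 estimate for HFD-STZ+DH against HFD-STZ+Veh was 0.64 with SE 0.22 and adjusted p = 0.059, which missed the threshold. DESeq2 called it (0.64, adjusted p = 0.038), as did edgeR without the filter (0.73, adjusted p = 0.049) or without NCD+Veh replicate 1 (adjusted p = 0.033), and with scaling by total count it stood at 1.39 (adjusted p = 0.11). Mt1 lay at 21.5, 15.4 and 22.2 CPM in HFD-STZ+DH, just below the 23.7 to 31.1 CPM of HFD-STZ+Veh (−0.47, SE 0.22, adjusted p = 0.14). Scaling by total count, which moves the median of all genes to 0.81, turned Mt1 to 0.36 and Hspa1a to 0.49.

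The other 7 genes overlapped between HFD-STZ+DH and HFD-STZ+Veh. Hspb1, the small heat shock protein HSP25, had 1.64, 1.91 and 3.49 CPM in HFD-STZ+DH against 2.38, 0.674 and 1.40 CPM in HFD-STZ+Veh (0.58, SE 0.46, adjusted p = 0.38), on counts as low as 5 in HFD-STZ+Veh replicate 2. Dnajb1, the HSP40 that delivers clients to HSP70, had 6.05, 9.69 and 7.50 CPM in HFD-STZ+DH against 6.17, 2.56 and 7.50 CPM in HFD-STZ+Veh (0.47, SE 0.36, adjusted p = 0.36). Hspa8 had 684, 843 and 739 CPM in HFD-STZ+DH against 531, 630.0 and 959 CPM in HFD-STZ+Veh (0.10, SE 0.31, adjusted p = 0.85). Hspd1 had 122, 135 and 125 CPM in HFD-STZ+DH against 82.5, 132 and 133 CPM in HFD-STZ+Veh (0.14, SE 0.27, adjusted p = 0.75). In these 4 genes the lowest HFD-STZ+Veh library was below all HFD-STZ+DH libraries, and the highest lay within their range, or above it for Hspa8. Hspa1a had 3.23, 3.44 and 2.12 CPM in HFD-STZ+DH against 4.87, 2.02 and 2.17 CPM in HFD-STZ+Veh (−0.07, SE 0.41, adjusted p = 0.92). Hspa1b had 4.08, 6.21 and 3.49 CPM in HFD-STZ+DH against 11.6, 5.26 and 3.25 CPM in HFD-STZ+Veh (−0.54, SE 0.49, adjusted p = 0.45). Mt2 had 13.6, 9.31 and 18.9 CPM in HFD-STZ+DH against 10.8, 9.57 and 12.7 CPM in HFD-STZ+Veh (0.32, SE 0.26, adjusted p = 0.38).

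Markers of other cells differed between these groups too. The summed level of 5 fat cell markers was 25.1 to 76.8 CPM in HFD-STZ+DH, against 10.3 to 20.9 CPM in HFD-STZ+Veh and 14.9 to 49.0 CPM in NCD+Veh. All 4 of those tested had an estimate above 0 against HFD-STZ+Veh, and 1 of them, the lipid droplet gene Cidec, rose, at 2.06, 0.601 and 0.436 CPM in HFD-STZ+DH against 0.0542, 0 and 0.0401 CPM in HFD-STZ+Veh (adjusted p = 0.047). Counts of Cidec were 0 to 1 in HFD-STZ+Veh, under the 3 taken as the floor, and 15 to 70 in HFD-STZ+DH. The defining marker Adipoq lay at 0 to 4.41 CPM in HFD-STZ+DH and at 0 to 0.108 CPM in HFD-STZ+Veh. Of 5 fibroblast and mesangium markers 2 rose, Pdgfrb and Tagln, with summed levels of 50.0 to 71.6 CPM in HFD-STZ+DH against 27.5 to 50.5 CPM in HFD-STZ+Veh. The part of these cells in the results was not tested.

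**Figure D2:**
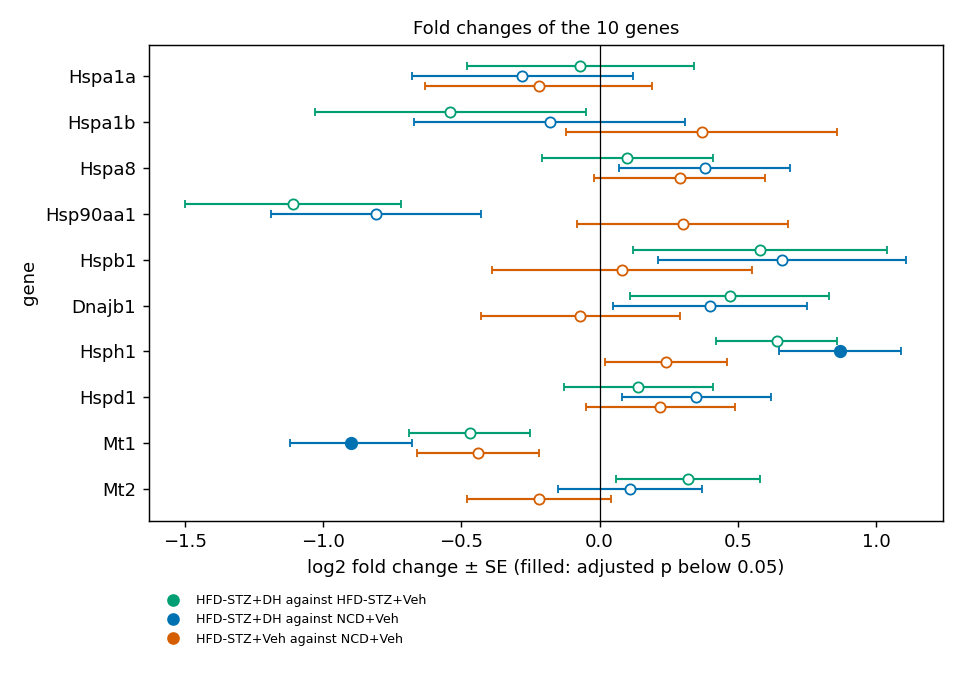
Log2 fold change (x axis) with its SE for the 10 genes in the 3 comparisons, from edgeR; filled points passed an adjusted p of 0.05. Hsph1 (0.87) and Mt1 (−0.90) in HFD-STZ+DH against NCD+Veh are the filled points, and the largest estimate, Hsp90aa1 at −1.11 in HFD-STZ+DH against HFD-STZ+Veh, is open.

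The treated diabetic kidneys were also set against the control diet, HFD-STZ+DH against NCD+Veh. This comparison shares its libraries with the previous ones and combines diet, streptozotocin and dehydrozingerone. Here 2 of the 10 genes changed, where 13.7% of all genes did (6.31% higher and 7.38% lower): Hsph1 rose and Mt1 fell. They were also the 2 genes without overlap between the groups, against 44.1% of all genes. The median log2 fold change was 0.23 over the 10 genes and 0.01 over all genes.

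Hsph1 rose to 29.7 ± 3.95 CPM in HFD-STZ+DH, against 16.2 ± 3.90 CPM in NCD+Veh (SD, n = 3 each; log2 fold change 0.87, SE 0.22, 1.83-fold, adjusted p = 0.027). Mt1 fell to 19.7 ± 3.76 CPM in HFD-STZ+DH, against 36.8 ± 4.94 CPM in NCD+Veh (−0.90, SE 0.22, 0.534-fold, adjusted p = 0.023). HFD-STZ+Veh lay between the other groups for both genes, at 19.1 ± 1.88 CPM for Hsph1 and 27.3 ± 3.71 CPM for Mt1. In whole tissue, fewer cells that express a gene and less of its RNA per cell cannot be told apart. Neither call held in every fit with a library left out. That of Hsph1 was lost without NCD+Veh replicate 1 (0.69, adjusted p = 0.099) or 2 (adjusted p = 0.064) and without HFD-STZ+DH replicate 1 (adjusted p = 0.096) or 2 (0.78, adjusted p = 0.11). That of Mt1 was lost without NCD+Veh replicate 1 (adjusted p = 0.054), 2 (adjusted p = 0.078) or 3 (adjusted p = 0.052) and without HFD-STZ+DH replicate 1 (adjusted p = 0.081) or 2 (−0.75, adjusted p = 0.10). With scaling by total count the estimates were 0.83 and −0.92 but the adjusted p 0.88 and 0.83.

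With a term for Y-linked transcripts in the fit, the log2 fold change was 0.89 for Hsph1 (SE 0.18, adjusted p = 0.0077). For Mt1 it was −0.91 (SE 0.21, adjusted p = 0.012). Values of both genes are also given for libraries with and without Y-linked transcripts, which were too few to be tested apart. Without Y-linked transcripts, Mt1 had 21.5 and 15.4 CPM in HFD-STZ+DH against 40.9 and 38.3 CPM in NCD+Veh. With them it had 22.2 CPM in HFD-STZ+DH against 31.4 CPM in NCD+Veh. Without them, Hsph1 had 29.9 and 33.5 CPM in HFD-STZ+DH against 18.0 and 18.8 CPM in NCD+Veh, and with them 25.7 CPM in HFD-STZ+DH against 11.7 CPM in NCD+Veh. Markers of other cells differed between the same groups. The summed level of 6 leucocyte markers was 21.6 to 33.8 CPM in HFD-STZ+DH, 8.02 to 17.4 CPM in HFD-STZ+Veh and 6.25 to 12.0 CPM in NCD+Veh, and 2 of the 5 tested, Ptprc and Lyz2, rose against NCD+Veh. Of 4 thick ascending limb markers 2 rose, with summed levels of 993 to 2144 CPM in HFD-STZ+DH against 515 to 1129 CPM in NCD+Veh. The 8 proximal tubule markers had 0 calls, with summed levels of 1146 to 4676 CPM in HFD-STZ+DH against 3743 to 7697 CPM in NCD+Veh. Lrp2, the first listed of them, lay at 251 to 406 CPM in HFD-STZ+DH and 268 to 410.5 CPM in NCD+Veh. Slc7a13, also of the 8, is among the genes at least 10-fold higher in every library with Y-linked transcripts than in any other library. Podocyte markers summed to 67.6 to 87.5 CPM in HFD-STZ+DH, 20.9 to 43.4 CPM in HFD-STZ+Veh and 51.4 to 69.8 CPM in NCD+Veh. The part of these cells in the results was not tested.

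The remaining 8 genes did not pass. Hsp90aa1 had 378 ± 103 CPM in HFD-STZ+DH and 664 ± 306 CPM in NCD+Veh (−0.81, SE 0.38, adjusted p = 0.17), with NCD+Veh replicate 1 at 1015 CPM setting most of that spread; without it the log2 fold change was −0.37. Hspb1 had 2.35 ± 0.995 CPM in HFD-STZ+DH and 1.45 ± 0.587 CPM in NCD+Veh (0.66, SE 0.45, adjusted p = 0.33) and Dnajb1 7.75 ± 1.83 CPM in HFD-STZ+DH and 5.86 ± 2.11 CPM in NCD+Veh (0.40, SE 0.35, adjusted p = 0.46). Hspa8 (0.38, adjusted p = 0.42), Hspd1 (0.35, adjusted p = 0.39), Mt2 (0.11, adjusted p = 0.81), Hspa1b (−0.18, adjusted p = 0.84) and Hspa1a (−0.28, adjusted p = 0.66) made up the rest.

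Mt1 and Mt2 answer to many of the same inducers, but their counts stood in different proportion in the 3 groups. The count of Mt1 was 1.58, 1.65 and 1.17 times that of Mt2 in HFD-STZ+DH, 2.19, 3.25 and 2.12 times in HFD-STZ+Veh, and 2.99, 2.93 and 2.67 times in NCD+Veh. Every HFD-STZ+DH library thus had a lower ratio than any library of the other groups, which overlapped each other. The ratio needs no scaling between libraries. It was chosen after its values were seen and was not tested. Among the genes most like Mt1 over the 9 libraries were Spen (Pearson r 0.884) and the clock-controlled transcription factor Dbp (0.874), and the most like Mt2 was Slc25a42 (0.874). For Hsph1 they were Cpd (0.987), the histone gene H3f3a (0.981) and Map2k1 (0.972).

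**Figure D3:**
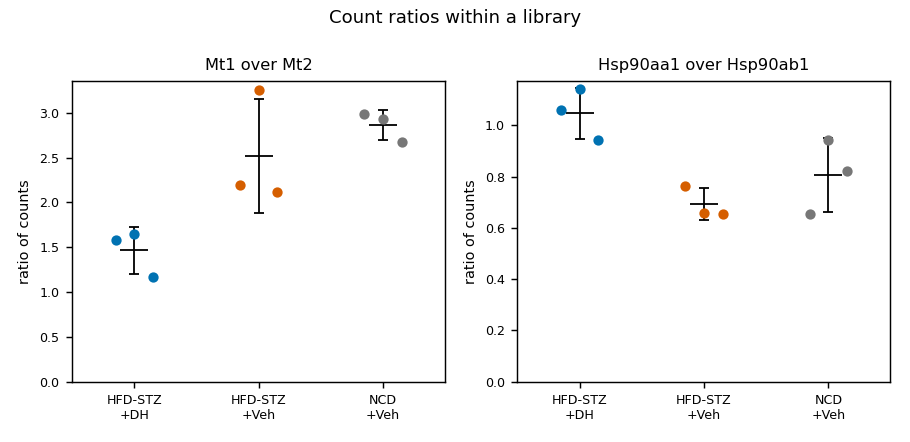
Ratio of 2 genes' counts within each library (y axis, from 0), with the mean and 1 SD of the 3 libraries of a group. Mt1 over Mt2 is 1.17 to 1.65 in HFD-STZ+DH and at least 2.12 elsewhere, and Hsp90aa1 over Hsp90ab1 is 0.942 to 1.14 in HFD-STZ+DH against 0.656 to 0.765 in HFD-STZ+Veh.

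The regulators of these genes were read at the RNA level only. Hsf1 had 4.41, 4.07 and 6.01 CPM in HFD-STZ+DH, 8.99, 2.83 and 7.38 CPM in HFD-STZ+Veh and 6.20, 9.34 and 6.92 CPM in NCD+Veh, and it did not pass in any comparison (HFD-STZ+DH against NCD+Veh −0.64, SE 0.34, adjusted p = 0.22). Hsf2, a second heat shock factor (0.39, adjusted p = 0.19), and Hsbp1, a small protein that binds HSF1 (0.38, adjusted p = 0.23), did not pass there either. Hsf4, best known from the lens, was the 1 gene that fell among the 4 tested of this list, which holds the heat shock factors and Hsbp1, on few counts (7 to 35 in HFD-STZ+DH), with −1.72 against HFD-STZ+Veh (SE 0.44, adjusted p = 0.018; adjusted p = 0.077 without HFD-STZ+DH replicate 1) and −1.39 against NCD+Veh (adjusted p = 0.049, lost in 8 of the 9 fits with a library left out). Mtf1 was near the threshold in both comparisons with HFD-STZ+DH. It had 4.82, 6.73 and 5.43 CPM in HFD-STZ+DH, 10.1, 6.06 and 11.6 CPM in HFD-STZ+Veh and 9.46, 10.1 and 9.60 CPM in NCD+Veh, with −0.73 against HFD-STZ+Veh (SE 0.24, adjusted p = 0.051) and −0.78 against NCD+Veh (SE 0.24, adjusted p = 0.052). Mt3 was at 0 to 0.498 CPM, and Mt4, of stratified epithelia, had 0 counts in all 9 libraries, which allows up to 0.0462 to 0.404 CPM by library.

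Zinc transporters included calls in both directions. Of 18 tested, 3 rose and 1 fell in HFD-STZ+DH against HFD-STZ+Veh and the same 4 did so against NCD+Veh, where the shares over all genes were 22.1% and 13.7%. Slc30a1, the zinc exporter of the plasma membrane and, like Mt1, a known target of MTF1, rose to 13.7, 20.1 and 12.9 CPM in HFD-STZ+DH, against 5.47, 8.22 and 7.18 CPM in HFD-STZ+Veh (1.18, SE 0.25, adjusted p = 0.0095) and 5.08, 6.56 and 7.64 CPM in NCD+Veh (1.28, SE 0.25, adjusted p = 0.012). Against NCD+Veh its direction was thus opposite to that of Mt1. Slc30a4 and Slc30a7, which load zinc into vesicles and the Golgi, rose as well, by 1.89 (SE 0.30, adjusted p = 0.0039) and 1.34 (SE 0.25, adjusted p = 0.0061) on the log2 scale against HFD-STZ+Veh. Slc39a2, a zinc importer, fell to 0.441, 0.616 and 0.930 CPM in HFD-STZ+DH, against 3.20, 2.43 and 2.08 CPM in HFD-STZ+Veh (−1.95, SE 0.36, adjusted p = 0.0059) and 3.58, 2.57 and 2.32 CPM in NCD+Veh (−2.08, SE 0.35, adjusted p = 0.0093). Against HFD-STZ+Veh these 4 calls held whichever library was left out. Against NCD+Veh all 4 were lost without HFD-STZ+DH replicate 1, the 3 that rose also without HFD-STZ+DH replicate 2 or NCD+Veh replicate 1, and Slc30a4 also without NCD+Veh replicate 2 or 3, with adjusted p of up to 0.12. Of 10 copper genes Slc31a1, the copper importer, rose against NCD+Veh (0.83, SE 0.22, adjusted p = 0.031, up to 0.12 with a library left out) and 0 passed against HFD-STZ+Veh, where the copper pump Atp7a came closest (−0.81, SE 0.27, adjusted p = 0.050).

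Among glucocorticoid-induced genes, which share an inducer with the metallothioneins, 0 of 10 rose and 3 fell in HFD-STZ+DH against HFD-STZ+Veh, where 12.0% of all genes fell and 22.1% passed in either direction. They were Nfkbia, the inhibitor of NF-kB (15.4, 20.6 and 27.6 CPM in HFD-STZ+DH against 50.2, 65.6 and 49.2 CPM in HFD-STZ+Veh; −1.37, SE 0.26, adjusted p = 0.0066), and the transcription factors Klf9 (−0.98, SE 0.28, adjusted p = 0.029) and Zbtb16 (−1.36, SE 0.41, adjusted p = 0.033). Nfkbia held its call whichever library was left out, while Klf9 and Zbtb16 each lost it in 4 of 9 such fits (adjusted p of up to 0.13), without HFD-STZ+Veh replicate 3 or HFD-STZ+DH replicate 2 in both cases. Fkbp5, an HSP90 co-chaperone and a glucocorticoid target, had 6.70, 4.85 and 11.6 CPM in HFD-STZ+DH, 7.85, 20.6 and 31.1 CPM in HFD-STZ+Veh and 9.51, 5.06 and 6.38 CPM in NCD+Veh (against HFD-STZ+Veh −1.37, SE 0.47, adjusted p = 0.059). Of 10 immediate early genes 0 passed in any comparison; the lowest adjusted p was 0.064, for Nr4a1 in HFD-STZ+DH against NCD+Veh.

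Among the other chaperones, 3 that act together in mitochondria rose. The mitochondrial HSP70 Hspa9 rose to 167, 199 and 118 CPM in HFD-STZ+DH, against 48.0, 63.5 and 76.3 CPM in HFD-STZ+Veh (1.37, SE 0.26, adjusted p = 0.0067) and 64.8, 67.6 and 73.5 CPM in NCD+Veh (1.24, SE 0.26, adjusted p = 0.015). Its nucleotide exchange factor Grpel1 rose to 14.4, 19.8 and 12.6 CPM in HFD-STZ+DH, against 4.39, 2.70 and 6.17 CPM in HFD-STZ+Veh (1.77, SE 0.31, adjusted p = 0.0055) and 4.22, 6.77 and 7.41 CPM in NCD+Veh (1.34, SE 0.30, adjusted p = 0.019). Its partner of the HSP40 family, Dnaja3, rose by 1.00 against HFD-STZ+Veh (SE 0.21, adjusted p = 0.0087) and by 0.97 against NCD+Veh (SE 0.21, adjusted p = 0.015). In each of these 3 genes every HFD-STZ+DH library was above every other library. Their calls against HFD-STZ+Veh held whichever library was left out, and those against NCD+Veh were lost without HFD-STZ+DH replicate 1 or 2 or NCD+Veh replicate 1 and, for Hspa9 and Grpel1, without NCD+Veh replicate 2 (adjusted p of up to 0.087). The chaperonin pair of the same compartment did not pass, since Hspe1, the partner of Hspd1, had 59.5, 67.7 and 55.8 CPM in HFD-STZ+DH against 31.8, 62.5 and 52.8 CPM in HFD-STZ+Veh (0.32, SE 0.25, adjusted p = 0.38). These 3 mitochondrial genes were grouped after their values were seen.

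**Figure D4:**
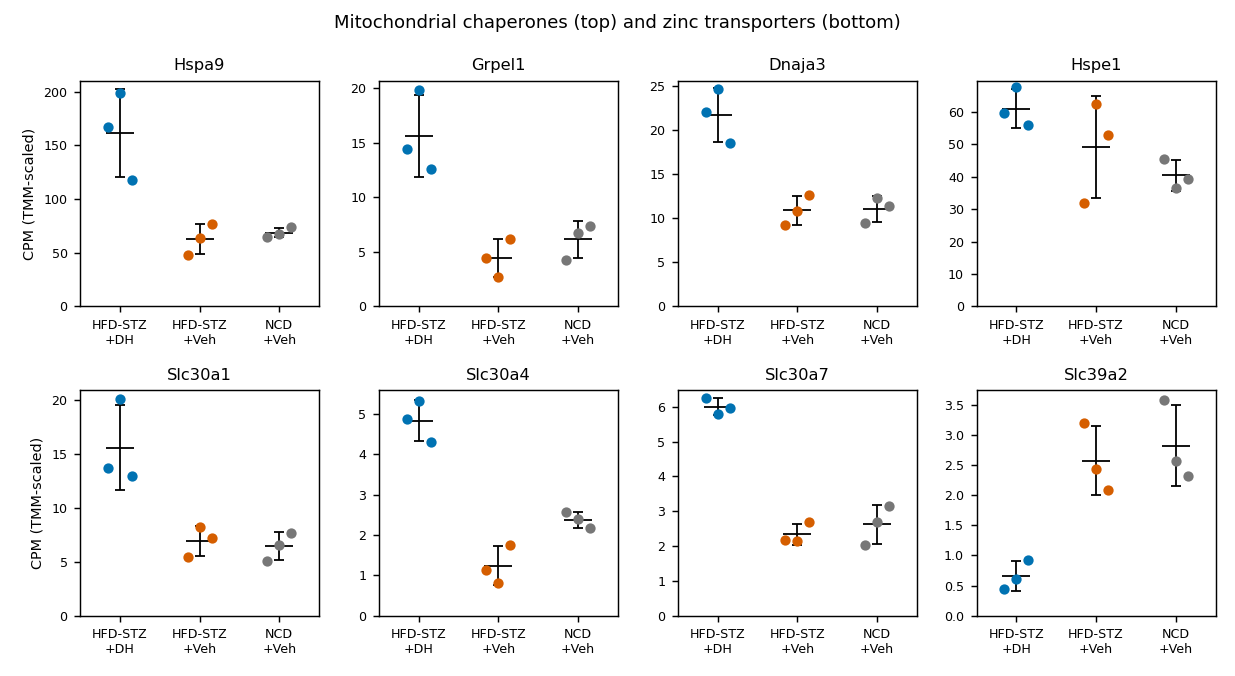
CPM (y axis, from 0) of 4 mitochondrial chaperone genes (top) and 4 zinc transporter genes (bottom) in the 3 libraries of each group, with the mean and 1 SD. Hspa9, Grpel1, Dnaja3, Slc30a1, Slc30a4 and Slc30a7 are higher and Slc39a2 lower in every HFD-STZ+DH library than in any other, while Hspe1 overlaps with HFD-STZ+Veh.

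In the cytosol, subunits of the ring chaperonin CCT, which folds actin and tubulin, rose in part. Of all 17179 genes, 1726 rose and 2070 fell in HFD-STZ+DH against HFD-STZ+Veh (22.1% in either direction), and 1084 rose and 1268 fell against NCD+Veh (13.7%). Of 11 chaperonin genes tested, 4 rose and 0 fell against HFD-STZ+Veh (Cct4 1.52, adjusted p = 0.0074; Cct2 0.86, adjusted p = 0.020; Cct3 0.96, adjusted p = 0.021; Cct5 0.83, adjusted p = 0.022), and 3 rose against NCD+Veh (Cct2, Cct8 and Cct3). Of 8 other HSP70 and HSP110 genes 4 rose and 0 fell against HFD-STZ+Veh, Hspa9, Hspa13, Hspa12a and Hspa2, and 3 rose against NCD+Veh, Hspa9, Hspa13 and Hspa4, of the HSP110 branch like Hsph1 (0.86, SE 0.25, adjusted p = 0.040). Of 14 HSP90 genes and co-chaperones Cdc37, which loads kinases (0.80, adjusted p = 0.020), and Stip1, which links HSP70 to HSP90 (0.84, adjusted p = 0.049), rose against HFD-STZ+Veh, and Hsp90ab1 fell. Cacybp rose against NCD+Veh (0.93, adjusted p = 0.030). Of 16 other HSP40 genes 2 rose (Dnaja3 and Dnajb4) and 2 fell (Dnajc8 and Dnajc2) against HFD-STZ+Veh. Of 11 HSP70 co-chaperones 2 rose (Grpel1 and Bag5) and 3 fell: Stub1, the ubiquitin ligase CHIP (−0.83, adjusted p = 0.012), St13 (−1.45, adjusted p = 0.028) and Bag4 (−0.92, adjusted p = 0.035). Stub1 also fell against NCD+Veh (−0.78, adjusted p = 0.022). Of 5 other small heat shock proteins Hspb7 fell in both comparisons, by 0.92 and 1.33 on the log2 scale (adjusted p = 0.036 and 0.014).

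Over all 118 other chaperone, metal and stress genes tested, 29 were called in HFD-STZ+DH against HFD-STZ+Veh (24.6%, against 22.1% of all genes), 17 higher and 12 lower. Against NCD+Veh 18 were called (15.3%, against 13.7%), 13 higher and 5 lower, and in HFD-STZ+Veh against NCD+Veh 0 were. These shares were near those of all genes. Of the 29 calls, 11 were kept without HFD-STZ+DH replicate 1, 11 without replicate 2 and 19 to 29 in the fits that left out another library, and 9 were kept in all 9 fits: Hspa9, Grpel1, Dnaja3, Cct4, Slc30a1, Slc30a4, Slc30a7, Slc39a2 and Nfkbia. Of the 18 calls against NCD+Veh, 0 were kept without HFD-STZ+DH replicate 1, 1 without replicate 2, 1 without NCD+Veh replicate 1, 5 without NCD+Veh replicate 2 and 11 without NCD+Veh replicate 3. With scaling by total count 12 genes were called against HFD-STZ+Veh, 12 of them higher, and 0 against NCD+Veh.

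**Figure D5:**
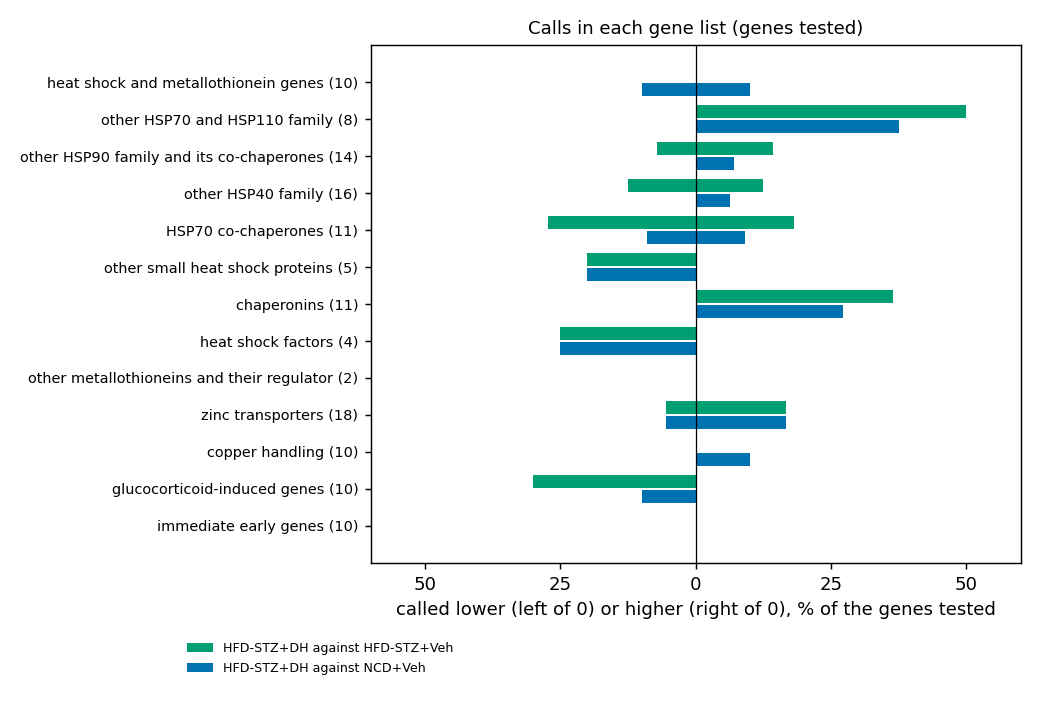
Share of the tested genes of each list (number tested in brackets) that were called higher (right of 0) or lower (left of 0) at an adjusted p of 0.05, for HFD-STZ+DH against HFD-STZ+Veh and against NCD+Veh. Among the 10 heat shock and metallothionein genes 1 rose and 1 fell against NCD+Veh and 0 were called against HFD-STZ+Veh; of all genes 22.1% were called against HFD-STZ+Veh and 13.7% against NCD+Veh.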

How the data were processed

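Polyadenylated RNA of 9 kidney tissue samples was made into stranded libraries, per the labels' protocols. The authors deposited raw read counts per gene in 1 table. Trim Galore, STAR and the build mm39 (GRCm39) are named, per the submitters' processing notes; counter, strand setting and annotation were not given in the sources used here. Overlapping and antisense genes may therefore share reads. The samples are not said to come from separate animals, and the spread behind the p-values is that between these samples. Part of it may be technical, but each group holds libraries with and without Y-linked transcripts, so it is not technical alone. Gene symbols were matched by Ensembl ID for 94.1% of 55359 genes.

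Counts were filtered (filterByExpr), scaled (TMM) and fitted with edgeR 4.0.16 (R 4.3.3) in 1 quasi-likelihood model of group over all 9 libraries, with 6 residual degrees of freedom. P-values were two-sided and Benjamini-Hochberg adjusted over 17179 genes, and genes were called below 0.05. The procedure was also run on simulated counts, drawn gene by gene. They lack the batch, mitochondrial and Y-linked differences of these libraries, so they cannot show how such differences affect the calls. CPM per kb used the joined length of all annotated exons of a gene in the GRCm38 annotation, which may exceed that of its main transcript. Alternatives used limma 3.58.1 and DESeq2 1.42.0, other scaling and filters, a Y-linked term and left-out libraries. The 10 genes and all lists were chosen with earlier results of these data known. All 10 were named in every comparison; from each wider list, up to 4 called genes of lowest p per comparison, or the 1 of lowest p where none was called, with Hsf1, Hsf2, Hsbp1, Mtf1 and Slc30a1 always; Hspe1, Mt4 and the remaining list genes named were added after their values were seen. Depth limits low genes: 3 counts equal 0.0462 to 0.404 CPM, which covers counting error only. A gene that the rule on likeness names is not reported here.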

Additional observations from a re-analysis of the deposited data

How the results depend on the processing

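Of the 10 genes, 0 were called in HFD-STZ+Veh against NCD+Veh under all 19 alternatives. In HFD-STZ+DH against HFD-STZ+Veh the count of 0 became 2 with DESeq2 or with no filter, 1 with limma-voom or with nuclear protein-coding genes only, and 0 to 2 with a library left out. In HFD-STZ+DH against NCD+Veh the count of 2 became 0 with library size only, 0 with the replicate block and 0 to 2 with a library left out. Over all genes, the 9 calls in HFD-STZ+Veh against NCD+Veh became 29 with library size only, 119 with DESeq2, 2 with limma-voom, 3 with only the 2 groups compared, 425 with no filter, 2 with the replicate block, 42 with a term for Y-linked transcripts and 2 to 28 with a library left out. The 3796 calls in HFD-STZ+DH against HFD-STZ+Veh became 888 with library size only, 2159 with the replicate block and 1149 to 4086 with a library left out. The 2352 calls in HFD-STZ+DH against NCD+Veh became 36 with library size only, 3981 with only the 2 groups compared, 772 with the replicate block, 3617 with the Y-linked term and 112 to 3706 with a library left out. Library size only also moved the share of calls that were higher to 24.1%, against 44.4%, in HFD-STZ+Veh against NCD+Veh, to 93.7%, against 45.5%, in HFD-STZ+DH against HFD-STZ+Veh, and to 50.0%, against 46.1%, in HFD-STZ+DH against NCD+Veh. The log2 fold changes that turned sign belonged to estimates that did not pass. In HFD-STZ+Veh against NCD+Veh library size only gave −0.27 for Hspa1b, −0.55 for Hspa8, −0.42 for Hsp90aa1, −0.57 for Hspb1, −0.56 for Hsph1 and −0.54 for Hspd1, the Y-linked term gave 0.09 for Dnajb1, and Hspa1a summed with Hspa1b gave 0.16. In HFD-STZ+DH against HFD-STZ+Veh library size only gave 0.49 for Hspa1a and 0.36 for Mt1, and Hspa1a was 0.01 with limma-voom, 0.03 with no filter and 0.01 with the replicate block. With a library left out, HFD-STZ+Veh against NCD+Veh ranged from −0.75 to 0.27 for Hspa1a, −0.32 to 0.98 for Hspa1b, −0.0016 to 0.47 for Hspa8, −0.38 to 0.35 for Hspb1 and −0.37 to 0.22 for Dnajb1. HFD-STZ+DH against HFD-STZ+Veh ranged from −0.28 to 0.47 for Hspa1a, −0.89 to 0.14 for Hspa1b, −0.09 to 0.39 for Hspa8 and −0.08 to 0.26 for Hspd1, and HFD-STZ+DH against NCD+Veh from −0.47 to 0.21 for Hspa1a, −0.45 to 0.44 for Hspa1b and −0.17 to 0.34 for Mt2. The cause of these shifts was not tested. Libraries with the same replicate number did not deviate together (r −0.41 to 0.22), so the block rests on the number alone. Over the chaperone, metal and stress lists, the 29 calls in HFD-STZ+DH against HFD-STZ+Veh became 12 with library size only and 16 with the block, and the 18 against NCD+Veh became 0 and 8. Hspb1, at 5 counts in 1 library, and Hspa1a, at 15, are limited by depth.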

Other observations

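A processed pseudogene of the mitochondrial co-chaperonin Hspe1 stood apart by library. Hspe1-ps6 was at 5.37 CPM in HFD-STZ+DH replicate 3, 30.3 and 30.6 CPM in HFD-STZ+Veh replicates 2 and 3 and 18.3 CPM in NCD+Veh replicate 1, and at most 0.117 CPM in the remaining 5 libraries. The 4 libraries are those with Y-linked transcripts. Altogether 13 genes annotated on autosomes were at least 10-fold higher in every one of these 4 libraries than in any of the 5, Slco1a1, Cyp4a12a, Slc7a13 and Hspe1-ps6 among them. Hspe1 itself was not set apart in this way. In the 4 libraries it had 55.8 CPM in HFD-STZ+DH, 62.5 and 52.8 CPM in HFD-STZ+Veh and 45.5 CPM in NCD+Veh, and in the remaining 5 it had 59.5 and 67.7 CPM in HFD-STZ+DH, 31.8 CPM in HFD-STZ+Veh and 36.4 and 39.2 CPM in NCD+Veh. The libraries with Y-linked transcripts were thus lower within HFD-STZ+DH and higher within the other groups.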
